A study of Rattus norvegicus with 38 samples.

Results

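Blood vessels were compared with clusters of neurons in the frontal cortex of early-stage Wistar rats, 24 to 25 weeks old. The 10 libraries were those whose titles mark an early Wistar vessel or neuron sample, out of 38 in the series. They formed 5 pairs, 1 vessel and 1 neuron library from each of the animals numbered 340, 343, 346, 349 and 368. The Wistar rat is an outbred laboratory strain and served here as the counterpart of SHRSP, the stroke-prone line of the spontaneously hypertensive rat, so the stage of a Wistar group marks its age. No treatment, transgene or allele is named for any group, and the sources used here do not state their sex. The other groups, used only for comparison, were late Wistar (4 animals, 32 to 34 weeks), early SHRSP (5 animals, 24 to 25 weeks) and late SHRSP (5 animals, 32 to 34 weeks), each with both materials from every animal. Both materials were cut by laser microdissection and read by 3' end RNA sequencing, in which each transcript gives reads near its 3' end, so counts do not scale with transcript length.

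A cortical vessel is lined by endothelial cells, which form the blood-brain barrier, and is wrapped by smooth muscle cells or pericytes and by the end-feet of astrocytes. Its RNA is therefore a mixture, and a cut vessel can carry blood cells and the surrounding tissue with it. Clusters of cortical neurons hold mainly large, RNA-rich cell bodies, with glia and fine vessels between them. The comparison asks which transcripts separate the vessel wall from its neighbouring neurons in animals of the non-hypertensive strain. In such bulk samples, fewer cells of a type and less RNA per cell cannot be told apart.

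The deposited counts give Ensembl gene identifiers (IDs below) without gene names, and 0 of the 32883 IDs matched the reference table used here. Markers of endothelium, mural cells, astrocytes, blood and neurons therefore could not be looked up, and the labels vessel and neuron were not checked against them. Genes are described below by their IDs, levels and behaviour, with no gene name, position or function.

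Vessel libraries held fewer different transcripts than neuron libraries, and more of their counts came from a few abundant ones. An ID with at least 1 count was found 8752 times in the vessels of animal 340, 6453 in 343, 5833 in 346, 11754 in 349 and 6543 in 368. The neuron libraries of the same animals held 12849, 9501, 13033, 14045 and 13592 IDs. Each vessel library was below its own neuron library, and the ranges overlapped because the vessels of animal 349 exceeded the neurons of animal 343. The means were 7867 ± 2438 IDs in vessels and 12604 ± 1798 in neurons (SD, n = 5 each), a difference of -4737 IDs with an SD of 2272.5 over animals (exact two-sided sign-flip permutation test, p = 0.063, the smallest that 5 pairs allow; 0.0833 adjusted over 8 library measures). Totals were 2633327 to 3998154 counts in vessels and 2318666 to 3382133 in neurons. The difference was as large at an equal depth of 2318666 counts, at -4721 IDs.

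The most abundant ID, ENSRNOG00000043866, took 16.3%, 14.0%, 12.6%, 40.6% and 9.73% of the vessel counts of animals 340, 343, 346, 349 and 368, and 9.48%, 6.78%, 10.7%, 24.6% and 4.34% of their neuron counts. Its share was higher in vessels in 5 of 5 animals, and animal 349 was highest in both materials. The 10 most abundant IDs of each library together held 37.9% ± 11.2 of the counts in vessels and 22.7% ± 9.04 in neurons (SD, n = 5 each). With ENSRNOG00000043866 taken out, the shares were 24.4% and 13.6%. Both differences pointed the same way in 5 of 5 animals and had the exact permutation p of 0.063, the smallest that 5 pairs allow.

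The abundant transcripts were largely common to both materials. Of the 100 most abundant IDs of each library, 51 were shared by all 5 vessel libraries, 65 by all 5 neuron libraries and 39 by all 10. Only 3 IDs were in the top 100 of every vessel library and of no neuron library, and 1 ID was in that of every neuron library and of no vessel library. Within an animal, 77 (animal 340), 75 (343), 70 (346), 71 (349) and 56 (368) of the 100 were common to its vessels and neurons.

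**Figure D1:**
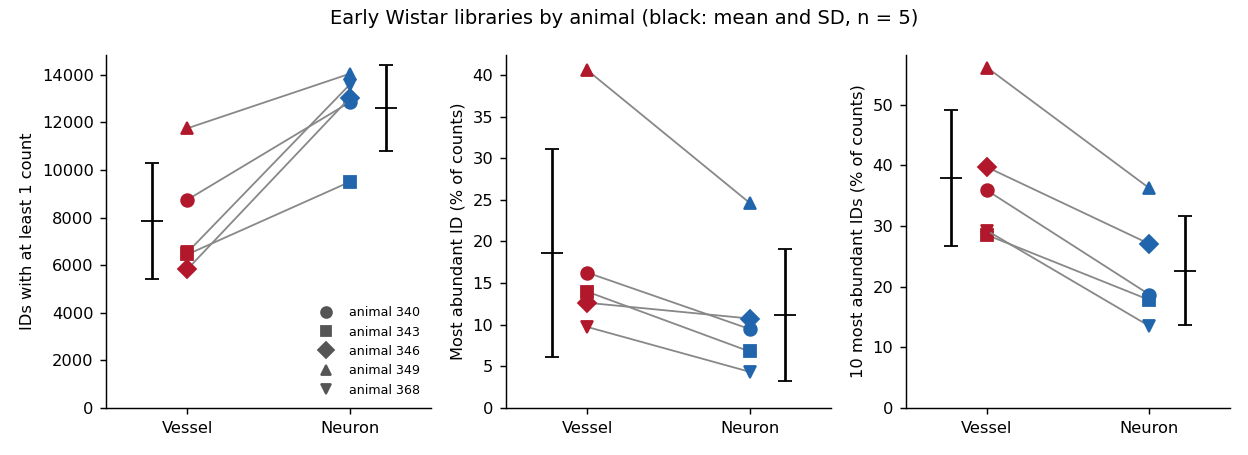
Number of IDs with at least 1 count (left), share of the most abundant ID (middle) and share of the 10 most abundant IDs in percent of counts (right) for the vessel and the neuron library of each early Wistar animal, with a line joining the 2 libraries of an animal and black bars for the mean and SD (n = 5). In all 5 animals the vessel library has fewer IDs and larger shares, and animal 349 has the highest share of the most abundant ID in both materials (40.6% and 24.6%).

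The 5 vessel libraries were much less alike than the 5 neuron libraries. The measure was Pearson's r of log2(CPM + 1) over 9070 IDs that passed a filter on low counts, where CPM is the library's counts scaled by its TMM-adjusted total. The 9070 IDs are not independent points, so r is a description. Pairs of vessel libraries had r between 0.458 and 0.651 (median 0.519), pairs of neuron libraries between 0.775 and 0.934 (median 0.911). The lowest neuron values, 0.775 to 0.798, all involved animal 343, whose neuron library had the fewest IDs. A vessel library was not closer to the neurons of its own animal (median 0.592, 0.557 to 0.817) than to those of other animals (median 0.628, 0.504 to 0.779).

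The same held ID by ID. The median coefficient of variation across animals was 1.12 in vessels and 0.360 in neurons, and it was larger in vessels for 96.6% of 9048 IDs. Counts of 0 were also far more frequent in vessels. Of the 9070 IDs, 3519 had counts in all 5 vessel libraries, against 8258 in all 5 neuron libraries. An ID can pass the filter on the counts of a single material, so these numbers depend partly on the filter. No ID tested was at 0 in 3 neuron libraries, and 1295 were at 0 in 3 vessel libraries. Of 2170 IDs at 50 CPM or more in every neuron library, 198 were at 0 in 1 vessel library, 31 in 2 and 5 in 3. These absences were unevenly spread over animals, at 2 IDs in the vessels of animal 340, 58 in 343, 121 in 346, 0 in 349 and 94 in 368. In the reverse direction, 1 of 1106 IDs at 50 CPM or more in every vessel library was at 0 in any neuron library, where 2 libraries lacked it.

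Fold changes were most negative at low levels. Over all 9070 IDs the median log2 fold, vessel minus neuron, was -1.19 in edgeR's quasi-likelihood fit with the animal as a block. It was -3.33 among the 3241 IDs with a mean under 20 CPM, of which 97.2% had a vessel library at 0. The median was -0.83 from 20 to 100 CPM, -0.26 from 100 to 1000 CPM and -0.05 in the 65 IDs at 1000 CPM or more. Within animals, the median log2 ratio of all tested IDs was -0.26 (340), -0.59 (343), -2.37 (346), -0.04 (349) and -1.75 (368). A negative fold of a low ID is therefore typical of the whole table in animals 346 and 368. The changes below are given beside these medians. The medians hold for the IDs kept by the filter, which an ID can pass on the counts of a single material. With at least 10 counts required in every library, the median log2 fold was -0.07 over 2389 IDs. How far the filter shapes the folds at low levels was not tested.

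Vessels and neurons differed in 87 of 9070 IDs (0.959%) at a Benjamini-Hochberg adjusted p under 0.05. Of these, 50 were higher in vessels (0.551%) and 37 were lower (0.408%), and 1051 IDs had an unadjusted p under 0.05. In simulated data with the unequal spread of the 2 materials, false calls lower in vessels were about as many as the lower calls found here, and the 37 are to be read with that in view. The simulation was a single draw without an effect shared by the 2 libraries of an animal. It cannot tell which of the 37 are false, because the levels of its false calls were not compared with theirs. The IDs higher in vessels had a median log2 fold of 1.68, with values from 0.70 to 7.39, and 49 of the 50 were higher in all 5 animals, as were 224 of all 9070 IDs (2.47%). In 37 of the 50, every vessel library lay above every neuron library, a separation found for 118 of all 9070 IDs (1.3%). The IDs lower in vessels had a median log2 fold of -1.26, with sizes from 0.73 to 4.44, and 28 of the 37 were lower in all 5 animals, as were 1033 of all IDs (11.4%). In 22 of the 37, every vessel library lay below every neuron library, which was found for 372 of all IDs (4.1%).

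The calls depended on how spread and scale were treated. A single spread per ID serves both materials in this fit, and for 8942 of the 9070 IDs that spread was almost wholly borrowed from other IDs, although the common biological coefficient of variation was 1.80 in vessels and 0.479 in neurons fitted alone. Without animal 349 the calls were 46 (36 higher and 10 lower), without animal 368 they were 51 (38 and 13), and with no animal block 41 (34 and 7). Other scalings moved the split, to 51 higher and 22 lower with the RLE factors and to 42 and 100 with upper-quartile factors. DESeq2 called 134 higher and 1047 lower, and limma on the log2 ratio within each animal called 0 of 9070 with 1504 at an unadjusted p under 0.05. The individual calls below are those of edgeR.

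**Figure D2:**
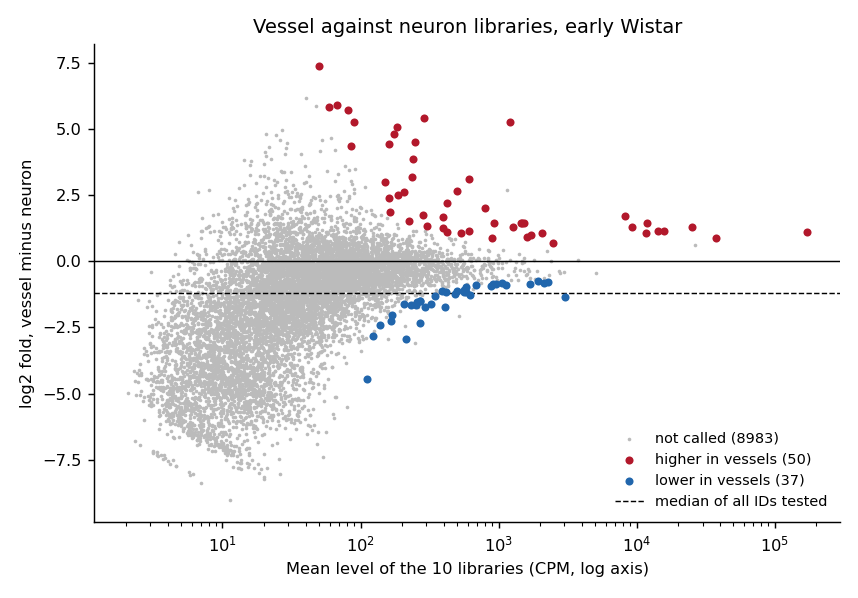
Log2 fold of vessel against neuron (vertical axis) by mean level of the 10 libraries (horizontal axis, CPM on a log axis) for the 9070 IDs tested in early Wistar animals, with the 50 IDs called higher and the 37 called lower in colour and the median of all IDs (-1.19) as a dashed line. The cloud bends downwards at low levels, where most IDs are at 0 in a vessel library, and no ID with a mean under 20 CPM was called.

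The IDs higher in vessels were split for description at a 4-fold difference. The split marks no gap, since the nearest log2 folds on either side were 1.84 and 2.03. In 22 of the 50 the fold was 4 or more, with a median log2 fold of 4.40. Their mean levels were 97.3 to 2376 CPM in vessels and 2.14 to 316.5 CPM in neurons, and all 22 separated the libraries completely. Among these, 3 had a neuron library at 0, and 12 differed by 16-fold or more. Together they made up 1.03% ± 0.730 of vessel counts and 0.119% ± 0.0248 of neuron counts (SD, n = 5 each). Their median level was 345 CPM in vessels and 21.8 CPM in neurons, beside 32.3 and 28.6 CPM over all IDs tested.

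The other 28 differed by less than 4-fold, with a median log2 fold of 1.27, and 15 of them separated the libraries. They were abundant in both materials and made up 37.4% of vessel counts and 21.3% of neuron counts on average. They include the 2 IDs with the smallest p among those higher in all 5 animals. ENSRNOG00000031033 was at 11270, 8435, 22794, 9370 and 11498 CPM in the vessels of animals 340, 343, 346, 349 and 368, and at 3217, 4730, 5026, 3322 and 2550 CPM in their neurons. Every vessel value lay above every neuron value, with means of 12674 ± 5802 and 3769 ± 1060 CPM (SD, n = 5 each). Its log2 fold was 1.70 (SE 0.16), or 3.25-fold, with an edgeR adjusted p of 1.25e-23.

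ENSRNOG00000043866, the most abundant ID of the libraries, was at 177789, 133625, 147846, 605542 and 98404.5 CPM in vessels and at 80862.9, 58332.2, 101540, 260254 and 35851.2 CPM in neurons, in the same order of animals. The 2 materials overlapped, because the neurons of animal 349 exceeded the vessels of the other 4 animals, but each animal was higher in vessels. Its log2 fold was 1.11 (SE 0.11), or 2.16-fold, with an edgeR adjusted p of 5.92e-22. This call ended without the animal block (adjusted p = 1), without the filter on low counts (0.264) and with all 38 libraries in the fit (0.0771). The call of ENSRNOG00000031033 ended in limma voom (adjusted p = 0.0722), and all 4 calls named here and below ended in limma on the within-animal ratios (0.202 for ENSRNOG00000031033).

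Of the 37 IDs lower in vessels, 30 differed by less than 4-fold, with a median log2 fold of -1.16. Most of the 37 were at medium to high levels: none of them had a library at 0, and their means were 188.1 to 4309 CPM in neurons. The 7 IDs that were lower by 4-fold or more had a median log2 fold of -2.41, and 5 of them separated the libraries. Of the 37, 20 were lower than the median of all IDs (-1.19), which covers IDs of every level. None of the 37 had a mean under 100 CPM over the 10 libraries. The median of all IDs was -0.26 from 100 to 1000 CPM and -0.05 at 1000 CPM or more. With sizes of at least 0.73, each of the 37 lay below the median of its own level. The 30 together held 1.51% of vessel and 3.54% of neuron counts.

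The 2 IDs lower in all 5 animals with the smallest p were both fully separated. ENSRNOG00000016156 was at 1896, 2495, 1631, 1238 and 1471 CPM in vessels and at 4381, 4605, 3658, 3836 and 5066 CPM in neurons. Its log2 fold was -1.33 (SE 0.18), or 2.52-fold lower, with an edgeR adjusted p of 7.27e-11. That call ended in limma voom (adjusted p = 0.0950). ENSRNOG00000047476 was at 219.3, 271.5, 270.7, 197.4 and 52.2 CPM in vessels and at 528.6, 816.2, 501.5, 582.4 and 639.7 CPM in neurons. The vessels of animal 368 were lowest, and the log2 fold was -1.74 (SE 0.32), or 3.35-fold lower, with an edgeR adjusted p of 1.64e-05.

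**Figure D3:**
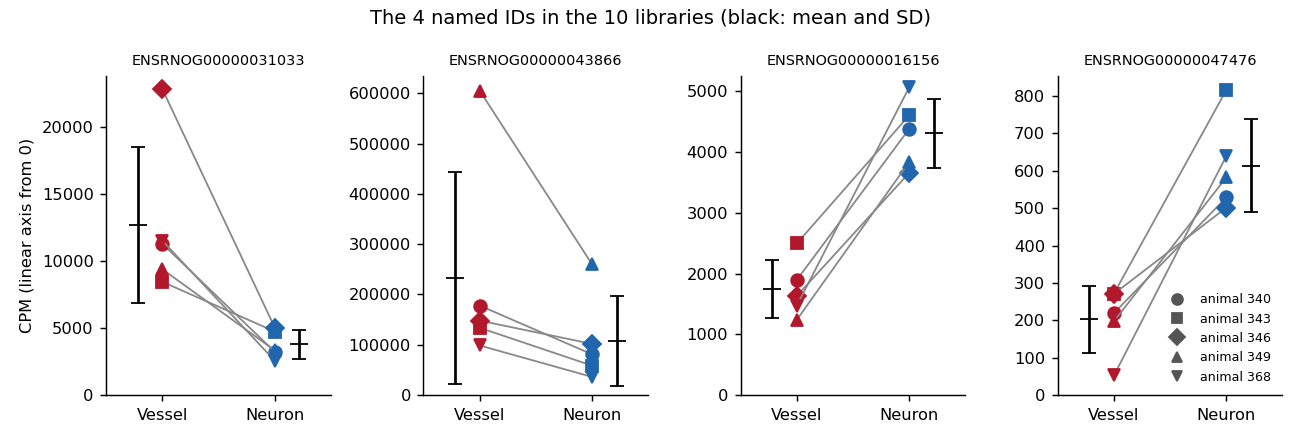
CPM (linear axes from 0, a different scale for each ID) of 2 IDs higher and 2 lower in vessels in all 5 animals, those with the smallest p, with a line joining the vessel and the neuron library of each early Wistar animal and black bars for the mean and SD (n = 5). All lines point the same way within an ID; the libraries of the 2 materials overlap only for ENSRNOG00000043866, where both libraries of animal 349 stand above those of the other 4 animals.

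The size of the calls varied between animals. The 50 higher IDs had a median log2 ratio within the animal of 1.71 (340), 1.10 (343), 1.67 (346), 1.65 (349) and 2.45 (368), and 49 or 50 of them were higher in each animal. The 37 lower IDs had medians of -0.77, -0.88, -1.71, -1.14 and -1.78. In animals 346 and 368, where the medians of all IDs were -2.37 and -1.75, the lower IDs were at -1.71 and -1.78. Those medians include many IDs at low levels, whereas none of the 37 had a mean under 100 CPM. The threshold itself ran between an ID with an adjusted p of 0.0456 and one of 0.0512.

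The same comparison was available in 3 other groups of animals, whose libraries were not used to choose the calls. Of the 50 IDs higher in early Wistar vessels, 31 were called higher in early SHRSP vessels (0.555% of all IDs tested there), 39 in late Wistar (5.58%) and 46 in late SHRSP (5.19%). Of the 37 lower IDs, 13 were called lower in early SHRSP (5.32%), 21 in late Wistar (3.39%) and 27 in late SHRSP (2.95%). None was called in the opposite direction. The fold had the same sign in 48 of the 49 higher IDs tested in early SHRSP, 47 of 50 in late Wistar and 48 of 50 in late SHRSP, and in 36, 37 and 37 of the 37 lower IDs, where the medians of all tested IDs were -3.54, -0.27 and -0.30. Early SHRSP vessels had 50 higher calls of their own, so the 31 are 62% of each list, whereas the 39 and 46 are 6.79% and 8.76% of the 574 and 525 higher calls of the late groups. The recurring lower IDs are 35.1%, 56.8% and 73.0% of the early Wistar list and 2.71%, 6.02% and 9.06% of the lower calls of early SHRSP, late Wistar and late SHRSP. In all 3 other groups together 27 of the higher and 7 of the lower IDs were called again, and 3 and 5 in none. How many of all IDs tested were called the same way in all 3 was not counted. These numbers therefore have no background share.

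The calls were also followed by the size of their fold. Of the 22 higher IDs that differed by at least 4-fold, 16 were called in all 3 other groups and none in no group, with median log2 folds of 5.30 in early SHRSP, 4.71 in late Wistar and 5.40 in late SHRSP. The 28 smaller ones had medians of 1.04, 0.84 and 1.06, and 11 were called in all 3. The 7 lower IDs of at least 4-fold had no member called in all 3. The difference between these shares was not tested, and the share over all IDs tested was not counted.

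The counts were repeated without animal 349, whose vessels held the largest share of the most abundant ID. That share, 40.6%, lay above the range of late Wistar vessels (22.3% to 34.0%). The 24.6% of its neurons lay within the range of late Wistar neurons (24.3% to 35.5%). Its 11754 vessel IDs also lay within the late Wistar range (10478 to 11974). With animal 349 left out of early Wistar, 23 of its 36 higher calls were called higher in early SHRSP, 26 in late Wistar and 32 in late SHRSP. Of its 10 lower calls, 1, 6 and 8 were called lower in the same 3 groups. In early SHRSP both libraries of animal 383 stood apart from the others of the group. Its vessel library held 10207 IDs, a number within the range of late SHRSP vessels (9875 to 11685). In its neurons the most abundant ID took 21.8% of the counts, against 5.37% to 6.74% in the other neuron libraries of the group. Late SHRSP neurons were at 20.4% to 26.7%. The number of IDs in its neurons, 13941, did not stand apart. Without that animal 2394 of the 8863 IDs tested there were called, 60 of the 8863 higher and 2334 lower. Beside these numbers, 28 of the 36 higher but still 1 of the 10 lower calls of early Wistar recurred. These alternatives were chosen after the data were seen.

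**Figure D4:**
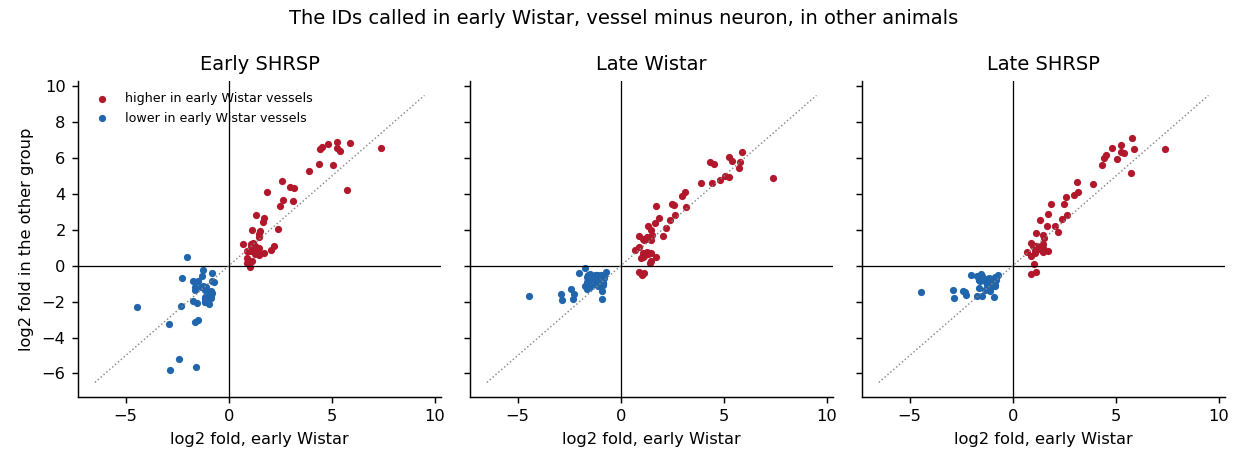
Log2 fold of vessel against neuron for the 50 higher and 37 lower IDs of early Wistar animals (horizontal axis) against the fold of the same IDs in early SHRSP, late Wistar and late SHRSP animals (vertical axes), which share no library with early Wistar; the dotted line marks equal folds. Nearly all points keep their sign, and 16 of the 22 higher IDs of at least 4-fold were called in all 3 other groups. The share over all IDs tested was not counted.

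The 4 named IDs differed in how far they recurred. ENSRNOG00000031033 had a log2 fold of 0.71 in early SHRSP (edgeR adjusted p = 8.67e-07), 0.50 in late Wistar (0.129) and 0.83 in late SHRSP (0.0127). ENSRNOG00000043866 had log2 folds of 0.27, -0.40 and -0.34, and none passed the edgeR test (adjusted p = 0.360, 0.439 and 0.469). ENSRNOG00000016156 had -1.19 (edgeR adjusted p = 1.05e-11), -0.64 (0.157) and -1.35 (0.000303). ENSRNOG00000047476 had -0.87 (edgeR adjusted p = 0.396), -1.14 (0.0116) and -1.68 (0.0103). The most abundant ID was thus higher in vessels of every early Wistar animal and passed the test in no other group. In early SHRSP it was also higher in the vessels of animals 374, 377, 380 and 386, and lower in those of 383. In the late groups it was higher in vessels only in animals 351 and 384. Its difference from early Wistar did not pass the edgeR interaction test for early SHRSP (adjusted p = 0.492) or late Wistar (0.823).

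Whether the vessel to neuron difference itself differed between strains at the early stage was tested as an interaction over 12117 IDs in all 38 libraries, and 17 IDs passed (0.14%), with 1213 at an unadjusted p under 0.05. In 15 of the 17 the vessel minus neuron value was larger in early Wistar, and in 2 it was smaller. The median difference over all IDs was 1.22 on the log2 scale. It was -0.21 among the 50 higher and 0.22 among the 37 lower IDs of early Wistar, of which 2 in all passed. ENSRNOG00000031033 was one of them, with a difference of 0.95 (SE 0.23, edgeR adjusted p = 0.0385), while ENSRNOG00000043866 differed by 0.80 (0.492). The call of ENSRNOG00000031033 ended with RLE scaling (0.213), in DESeq2 (0.321) and without animal 340, 346, 349, 368 or 386 (0.0726 to 0.201).

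The 2 IDs with the smallest p, both with a larger value in early Wistar, had almost no counts in 4 of the 5 early SHRSP vessel libraries. Those libraries, of animals 374, 377, 380 and 386, held few IDs in general, at 6088, 4104, 5745 and 6549 with at least 1 count. That of animal 383 held 10207, and early Wistar vessels 5833 to 11754. How far this shortage across IDs enters the strain difference was not tested. ENSRNOG00000005726 was at 256, 174, 19.5, 459 and 19.6 CPM in the vessels of the early Wistar animals in the order above, and at 309, 60.0, 371, 487 and 259 CPM in their neurons. In early SHRSP its vessels held 4, 2, 3, 479 and 1 counts in animals 374, 377, 380, 383 and 386, against 159 to 332 CPM in all 5 neuron libraries. The early Wistar fold was -1.12 and that of early SHRSP -6.79, a difference of 5.41 (SE 0.96, edgeR adjusted p = 0.000122) that ended with animal 377 left out (0.379), without the animal block (0.323) and with only the 2 groups in the fit (0.951). ENSRNOG00000004057 was alike, with early Wistar vessels at 352, 44.8, 129, 523 and 95.1 CPM and early SHRSP vessels at 3, 5, 5, 818 and 8 counts. Its folds were -0.42 and -5.82, a difference of 5.25 (SE 0.94, edgeR adjusted p = 0.000122) that ended without the block (0.319) and with only the 2 groups (0.432). Animal 383 was the one early SHRSP animal with more than 8 vessel counts for either ID.

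The 2 IDs with a smaller value in early Wistar had positive folds in both strains. ENSRNOG00000017628 was at 50.5, 49.9, 10.7, 171 and 443 CPM in early Wistar vessels and at 479 to 1760 CPM in early SHRSP vessels, against 1.55 to 17.3 and 3.41 to 9.85 CPM in the neurons. Within early Wistar its vessels overlapped the neurons through animal 346, and it did not pass the edgeR test there (adjusted p = 0.105). The vessels of the strains did not overlap, and the folds of 3.44 and 7.69 differed by -4.26 (SE 0.98, edgeR adjusted p = 0.0254). ENSRNOG00000015550 was at 942, 1430, 1761, 1564 and 5190 CPM in early Wistar vessels and at 3139 to 8978 CPM in early SHRSP vessels. These overlapped through animal 368, and the folds of 5.26 and 6.88 differed by -1.65 (SE 0.41, edgeR adjusted p = 0.0481). The call of ENSRNOG00000017628 ended in limma voom (adjusted p = 0.205), with only the 2 groups in the fit (0.0508) and without animal 340, 346 or 349. That of ENSRNOG00000015550 ended in limma voom (adjusted p = 0.549), without the animal block (0.0683) and without animal 340, 343, 349, 374, 377 or 380. The number of IDs called fell to 5 without animal 340 or 349 and rose to 41 without 346, 26 without 380 and 302 without 383.

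**Figure D5:**
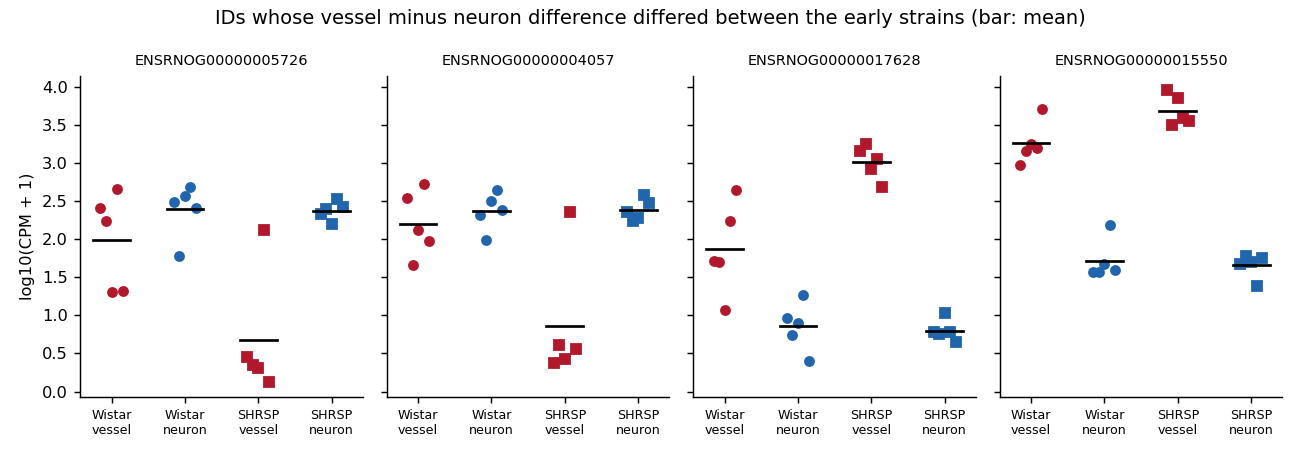
Level as log10(CPM + 1) of the 4 IDs named for a strain difference in the vessel minus neuron value (2 in each direction), by material, with each library as a point and a bar at the mean, for the 5 early Wistar and the 5 early SHRSP animals. In the first 2 IDs, 4 of 5 early SHRSP vessel libraries hold 1 to 8 counts and animal 383 lies with the Wistar libraries; in ENSRNOG00000015550 the vessels of both strains lie above all neurons, and in ENSRNOG00000017628 the lowest Wistar vessel library lies within the range of the Wistar neurons.

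Between early and late Wistar animals the vessel to neuron difference passed the edgeR test in 0 of 12117 IDs (0%), with 720 at an unadjusted p under 0.05. DESeq2 called 349 IDs and limma voom 1. The smallest p belonged to ENSRNOG00000031033, whose log2 fold was 1.70 early and 0.50 late, a difference of 1.10 (SE 0.25, edgeR adjusted p = 0.0873). It passed with RLE scaling (0.00484), with only the 2 groups in the fit (0.0163) and without animal 343 (0.00245) or 353 (0.0167). Its early Wistar vessel value was 11647 CPM on the scale of the 38-library fit and its late value 6152 CPM, while the neurons were at 3767 and 4485 CPM. The median difference over all IDs was -1.16, and none of the 87 early Wistar calls passed.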

How the data were processed

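Libraries were made from laser-microdissected material with the PicoPure and QuantSeq 3' forward kits, per the labels' protocols. The file deposited by the authors holds unnormalized counts for 32883 Ensembl IDs in 38 columns. HTSeq 0.6.1 and DESeq2 1.18.1 appear in the submitters' processing notes beside STAR 2.5.3a and FastQC 0.11.5. No build, annotation or strand setting is given in the sources used here. How reads from overlapping or near-identical genes were counted is therefore not known.

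Groups and animal numbers were taken from the labels. The 10 early Wistar libraries were fitted in edgeR 4.0.16 (R 4.3.3) with TMM scaling, the package's filter on low counts by material, robust quasi-likelihood F tests, two-sided, and the animal as a block, with calls at a Benjamini-Hochberg adjusted p under 0.05. The interactions used all 38 libraries. A standard error is the log2 fold divided by the square root of F. Replicates are separate animals, so the spread between them mixes variation of animals, cutting and library making. In the main fit, 8942 of the 9070 IDs took that spread almost wholly from other IDs. Their edgeR p-values and standard errors therefore do not measure the ID's own variation between animals. Tests on simulated data recovered known changes with few false calls when both materials varied alike; with each material's own spread, false calls were mostly lower in vessels and about as many as the lower calls reported. With that spread, and in the interaction, most known changes were missed. The pairing rests on the animal number in the titles: deviations of same-animal libraries correlated between -0.0164 and 0.346 (median 0.0377, 1 of 5 over 0.1). No 2 libraries of a group agreed within counting noise (smallest chi-square per degree of freedom 14.4). Limits from counts cover counting error only. Alternatives in scaling (RLE, upper quartile), filter, block, tool (DESeq2 1.42.0, limma 3.58.1) and left-out animals are given in the closing section.

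The comparison and all lists were chosen with earlier results of these data known. The gene lists and cell type markers set for this work require gene names and were not used. Under the rule for that case, at most 2 IDs in each direction were named in the main comparison. They were those with the smallest p among calls that pointed the same way in all 5 animals. For the strain interaction the 2 calls with the smallest p in each direction were named, although its rule allowed more. The stage interaction had no call, and the ID with the smallest p was named.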

Additional observations from a re-analysis of the deposited data

Results flagged for a closer look

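A sample far from the others of its group was looked for in each group of 5. The rule used the gap to the nearest sample over the whole range. For a single measure, chance alone gives this in about 1 in 20 groups. Several measures and IDs were looked at, and some of them overlap. Their number is not given, so the flags cannot be weighed against that rate. The neuron library of animal 343 stood apart in the number of IDs detected, at 9501 as deposited and 9439.58 at equal depth. The vessel library of animal 349 stood apart in the share of its most abundant ID, at 40.5829%, and that ID, ENSRNOG00000043866, was at 605542 CPM there. ENSRNOG00000031033 was at 22794 CPM in the vessels of animal 346, above the other 4. Their part in the results was not tested beyond leaving each animal out.

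A difference between strains at the early stage in the vessel minus neuron value, by the edgeR interaction test, was found in 17 IDs. Of those named, the difference on the log2 scale was 5.41 in ENSRNOG00000005726, 5.25 in ENSRNOG00000004057, -4.26 in ENSRNOG00000017628 and -1.65 in ENSRNOG00000015550.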

How the results depend on the processing

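The count of IDs that differed between early Wistar vessels and neurons, 87 in edgeR, stayed within 1.5 times under 9 alternatives and moved under 7. This compares only the number of calls, not which IDs were called. RLE scaling gave 73 calls, of which 72 were among the 87. The fit of all 38 libraries gave 82, of which 38 were among the 87, and limma voom 122, of which 50 were. The main fit paired the libraries by animal, and with no replicate block it gave 41. The count was 142 with upper-quartile scaling and 1181 with DESeq2. Leaving out 1 animal gave 46 to 86. Of 2 tests chosen after seeing the data, limma on the within-animal log2 ratio gave 0 (1504 at an unadjusted p under 0.05), and the same centred on each animal's median gave 22, of which 12 were among the 87. Lower calls of early Wistar without animal 349 that recurred were 1 in early SHRSP (also 1 without animals 349 and 383), 6 in late Wistar and 8 in late SHRSP; the higher ones stayed within 1.5 times. The strain interaction, 17 IDs, became 335 with no replicate block, 10 with RLE scaling, 1713 with DESeq2, 83 with limma voom and 3 with only the 2 groups fitted, and 5 to 302 with 1 animal left out. The stage interaction, 0 IDs, became 1 with RLE scaling, 349 with DESeq2, 1 with limma voom, 2 with only the 2 groups fitted and 0 to 1 with 1 animal left out. The cause of these moves was not tested, except that leaving out animals leaves fewer samples. Differences in IDs detected and in the share of the most abundant ID stayed within 1 SD under every alternative run. No named result changed direction. Of IDs with a mean under 20 CPM, 97.2% were at 0 in a vessel library and none was called.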
